A study of Mus musculus with 45 samples.

Results

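The transcriptional response to myocardial infarction (MI) was examined in mouse hearts labelled OE, in which the receptor tyrosine kinase ERBB2 had been overexpressed transiently in cardiomyocytes, at T2, the stage 2 weeks after the overexpression. The comparison took the 3 MI hearts (replicates 1, 3 and 4) against the 4 sham-operated hearts (replicates 1 to 4) of the OE genotype at T2, 7 of the 45 libraries of the series. The members were taken from the sample titles and not from measured values. Hearts labelled WT at T2 (3 MI and 4 sham) and OE hearts at T3, 4 weeks after the overexpression (4 MI and 3 sham), were used for comparison. The sources used here give neither the promoter that drives the transgene nor the day of the MI relative to the overexpression, nor age or sex.

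ERBB2 on cardiomyocytes is the signalling co-receptor for neuregulin, and its forced activity drives cardiomyocytes to dedifferentiate and re-enter the cell cycle. After an infarct, inflammatory cells clear the dead muscle, fibroblasts turn into matrix-secreting myofibroblasts, and collagens and matricellular proteins build the scar, while surviving cardiomyocytes lower oxidative and contractile genes and raise fetal and stretch-responsive ones. RNA was taken from whole powdered hearts, so scar, remote muscle and atria were measured together, and fewer cells of a type cannot be told apart from less RNA per cell.

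The 7 libraries held between 15780864 and 18461809 reads assigned to genes, as recovered from the deposited normalized counts. Mitochondrial genes took 22% to 26.9% of the normalized counts in the sham hearts and 23.2% to 26.3% in the MI hearts. The heart label was borne out by Myh6, the adult cardiac myosin heavy chain, at 223168 to 326365 normalized counts in every one of the 7 libraries. Erbb2 itself was at 277, 271, 308 and 276 normalized counts in the OE sham hearts and at 268, 325 and 271 in the OE MI hearts at T2, with overlapping groups (log2 change 0.02 ± 0.10 SE). In the T1 libraries, taken during the overexpression and normalized separately, Erbb2 ranged from 769 to 2436 in the OE sham hearts and from 243 to 250 in the WT sham hearts. At T2 the WT sham hearts were at 172 to 218, below all OE sham hearts, a comparison not tested here.

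The 7 hearts were not balanced for sex, which the labels do not give. All 4 sham libraries had reads of Y-linked genes and at most 16.8 normalized counts of Xist, the RNA of the inactive X chromosome in females. The MI library of replicate 1 had the same pattern, at 12 for Xist, whereas those of replicates 3 and 4 held 5772 and 6822 for Xist and at most 0.98 for the Y-linked gene Ddx3y. Sex and MI cannot be fully told apart in this comparison, and results are given below also with sex as a covariate over all 29 libraries of the second experiment, and with only the male MI heart. Among WT hearts at T2, sham replicate 1 and MI replicates 2 and 3 had the female pattern of high Xist. In OE hearts at T3, sham replicates 1 and 2 and MI replicates 1, 2 and 3 had it. The other libraries of these groups had the male pattern, so those comparisons were not balanced for sex either. A set of processed pseudogenes also separated the libraries. Gm15487 stood at 89.5, 98.1 and 84.6 in sham replicates 1, 2 and 4, at 6.91 in sham replicate 3, and at 6.40, 0.98 and 3.54 in the MI hearts. Sham replicate 3 thus lay with the MI hearts for this locus, as it did for Gm9825 (9.87 against 64.5 to 67.2 in the other sham hearts). Among the WT hearts at T2 all 4 sham libraries were high for Gm15487 and all 3 MI libraries low, while all 7 OE libraries at T3 were high. These loci were chosen after their values were seen, and results are given also with high or low Gm15487 as a covariate. Class was mixed only within the OE shams at T2 and the WT shams at T3, so its effect is estimated from these groups alone. Class and MI nearly coincide in OE hearts at T2, so a call lost under this covariate cannot tell them apart.

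Few genes passed the test. Of 15533 genes tested, 4 were lower after MI (0.0258%) and 0 were higher (0%) at an adjusted p below 0.05, by limma on log2(normalized count + 1) with Benjamini-Hochberg adjustment over all genes. At an unadjusted p below 0.05, 604 genes were higher (3.89%) and 493 lower (3.17%). The edgeR quasi-likelihood test on the recovered reads called 0 higher and 4 lower, and DESeq2 called 13 higher and 24 lower, the same 4 genes among them. A limma fit on the 7 libraries alone called 25 higher and 15 lower, among them Kalrn and Etl4 but neither Vtn nor Nos2. The 4 genes were Vtn, Kalrn, Nos2 and Etl4. With sex as a covariate Vtn alone was called. With Gm15487 class as a covariate 0 genes were called, but class nearly coincides with MI in these hearts. The fit with only the male MI heart assumes that its lone value varies like the other groups, and its effect sizes are given below.

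The genes fell as follows. Vtn encodes vitronectin, a plasma and matrix glycoprotein that binds integrins and the plasminogen activator inhibitor. It was at 755, 873, 591 and 843 normalized counts in the OE sham hearts and at 469, 462 and 466 in the MI hearts. The groups did not overlap, the SD of the MI hearts was 3.70, and sham replicate 3 was the lowest of the sham hearts. The log2 change was -0.70 ± 0.10 (SE; limma, adjusted p = 0.00155), and it ranged from -0.82 to -0.63 with each of the 7 libraries left out, called each time. With sex as a covariate it was -0.68 (limma, adjusted p = 0.0122), with the male MI heart alone -0.69 (limma, adjusted p = 0.227), and with Gm15487 class as a covariate -0.53 (limma, adjusted p = 0.878). Over its 18 alternatives the adjusted p ran from 7.02e-08 to 0.878.

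Kalrn encodes kalirin, an exchange factor that activates Rac GTPases. Its normalized counts were 440, 474, 463 and 475 in the OE sham hearts and 344, 367 and 331 in the MI hearts. All MI hearts lay below all sham hearts. The log2 change was -0.42 ± 0.07 (SE; limma, adjusted p = 0.0265). Nos2, the inducible nitric oxide synthase, was at 224, 281, 193 and 249 in the sham hearts and at 154, 125 and 153 in the MI hearts. Here too the groups did not overlap, and sham replicate 3 was again the lowest of the shams. Its log2 change was -0.71 ± 0.13 (SE; limma, adjusted p = 0.0270). Etl4, also called sickle tail, was at 1081, 1061, 892 and 1197 in the sham hearts and at 658, 705 and 665 in the MI hearts, with sham replicate 3 the lowest sham once more. Its log2 change was -0.64 ± 0.12 (SE; limma, adjusted p = 0.0449).

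Calls of these last 3 genes depended on single libraries. Kalrn remained called without sham replicate 1 or 3 or MI replicate 3 and was lost without sham replicate 2 or 4 or MI replicate 1 or 4. Nos2 and Etl4 remained called only without sham replicate 3. The log2 changes with a library left out stayed between -0.46 and -0.38 for Kalrn, -0.80 and -0.61 for Nos2, and -0.72 and -0.58 for Etl4. With sex as a covariate the changes were -0.39, -0.66 and -0.52 (limma, adjusted p = 0.135, 0.151 and 0.237). With Gm15487 class as a covariate they were -0.40, -0.47 and -0.36 (limma, adjusted p = 0.896, 0.918 and 0.974). With the male MI heart alone, they were -0.43, -0.61 and -0.68 (limma, adjusted p = 0.337, 0.446 and 0.372).

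**Figure D1:**
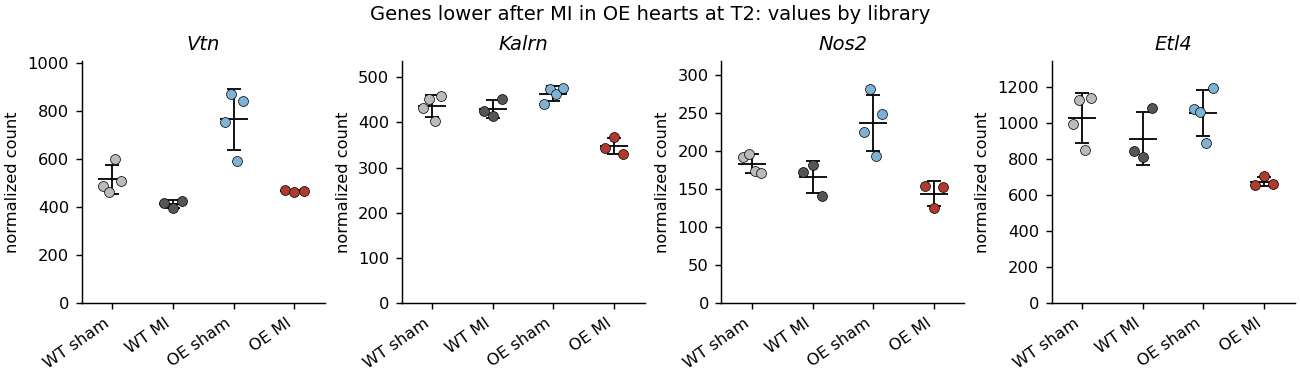
Normalized counts (y axis, linear from 0) of Vtn, Kalrn, Nos2 and Etl4 in each T2 library of the WT and OE genotypes, with the mean and SD of each group. In each gene the 3 OE MI hearts lie below all 4 OE sham hearts, and for Vtn, whose OE MI hearts are at 462 to 469, the OE sham hearts other than replicate 3 also lie above all WT hearts.

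The promoters of Vtn and Kalrn are shown because these genes led the calls; the RefSeq table (GRCm38.p6) holds 1 start for each. They run 5′ to 3′ from 250 bases before to 50 after the start, and capitals mark matches to the motifs searched on both strands. The AP-1 motif was searched as TGANTCA. The GC box was searched as GGGCGG, and the TATA motif as TATAAA, with overlaps allowed. The Vtn promoter lies at chr11:78498870-78499169 on the plus strand and the Kalrn promoter at chr16:34513978-34514277 on the minus strand. The Kalrn start lies within the gene span given below and not at its 5′ end, so that end was not searched.
Vtn promoter: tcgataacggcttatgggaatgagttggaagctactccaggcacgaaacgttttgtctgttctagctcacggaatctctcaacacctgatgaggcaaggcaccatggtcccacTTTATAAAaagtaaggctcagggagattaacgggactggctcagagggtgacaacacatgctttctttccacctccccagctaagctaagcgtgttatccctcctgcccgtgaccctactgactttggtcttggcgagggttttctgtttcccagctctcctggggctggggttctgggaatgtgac
Kalrn promoter: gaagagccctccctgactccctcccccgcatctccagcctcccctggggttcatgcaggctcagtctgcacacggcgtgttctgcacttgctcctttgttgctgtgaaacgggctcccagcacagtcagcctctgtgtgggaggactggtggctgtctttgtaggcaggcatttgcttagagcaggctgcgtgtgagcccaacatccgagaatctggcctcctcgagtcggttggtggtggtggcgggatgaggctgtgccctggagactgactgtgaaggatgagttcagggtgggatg
The Vtn window held 2 overlapping TATA matches, on opposite strands, and the Kalrn window 0 matches. Of 32851 promoters of the same length, 13.6% held the TATA letters, 35.7% the GC box letters and 7.81% the AP-1 letters. The 3 Etl4 starts in the table, on chromosome 2, held 0, 1 and 0 TATA matches. A match is a description of letters only.

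Vtn (ENSMUSG00000017344, chr11:78499091-78502324, plus strand) and Nos2 (ENSMUSG00000020826, chr11:78920787-78960254, plus strand) lie on chromosome 11 of GRCm38, 0.418 Mb apart. The 8 tested genes between them had log2 changes from -0.17 to 0.13, the lowest adjusted p among them being 0.786 (limma). Kalrn (ENSMUSG00000061751) is at chr16:33969073-34573532 on the minus strand and Etl4 (ENSMUSG00000036617) at chr2:19909780-20810713 on the plus strand. Etl4 overlaps annotated pseudogenes and antisense transcripts, and whether reads were counted by strand is unknown.

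These 4 genes were compared with the WT hearts at T2 and the OE hearts at T3. Vtn was 515 ± 61.2 (SD, n = 4) in WT sham hearts and 413 ± 15.1 (SD, n = 3) in WT MI hearts, a log2 change of -0.31 that passed the test (limma, adjusted p = 0.0225), and the difference between the genotypes did not (-0.39, limma adjusted p = 0.0964). Its OE sham level at T2, 765 ± 126 (SD, n = 4), stood above the 480 ± 41.8 (SD, n = 3) of OE sham hearts at T3. At T3 the direction was opposite, with 638 ± 36.8 (SD, n = 4) in MI hearts and a log2 change of 0.41 (limma, adjusted p = 0.00516). The response at T3 minus that at T2 was 1.11 ± 0.14 (SE; limma, adjusted p = 8.69e-05). Etl4 also fell at T2 and rose at T3 (0.44, limma adjusted p = 0.0119). Its difference between the stages was 1.08 ± 0.17 (SE; limma, adjusted p = 0.00078).

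Kalrn showed a log2 change of -0.02 in WT hearts at T2 and of -0.00 in OE hearts at T3. The response in OE minus that in WT at T2 was -0.40 ± 0.10 (SE; limma, adjusted p = 0.0222). Nos2 changed by -0.15 in WT hearts (limma, adjusted p = 0.407) and by -0.05 in OE hearts at T3 (limma, adjusted p = 0.835). Its difference between the genotypes, -0.56, did not pass (limma, adjusted p = 0.0651).

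Vitronectin belongs to a list of 14 genes for its integrin receptors and the plasminogen activators, of which 12 were tested. Of these, 0 rose and 1, Vtn, fell; the median log2 change was 0.14, against 0.00 over all genes tested. Plau, the urokinase-type plasminogen activator, stood at 263, 343, 256 and 333 in the OE sham hearts and at 196, 139 and 123 in the MI hearts. The groups did not overlap, but the change of -0.98 ± 0.21 (SE) missed the threshold (limma, adjusted p = 0.170) except under DESeq2. Plau differed between the genotypes (-1.23 ± 0.29 SE; limma, adjusted p = 0.0162) and rose after MI in OE hearts at T3 (0.95, limma adjusted p = 0.00276). Plaur, the urokinase receptor, and Itgb3, the integrin beta 3 chain that binds vitronectin, had log2 changes of 0.85 and 0.83 with no overlap between the groups (limma, adjusted p = 0.356 and 0.254).

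Of the nitric oxide and arginine list, Nos2 fell and the other 12 members tested did not pass. Nos1 and Nos3, the neuronal and endothelial synthases, changed by -1.31 and -0.03 (limma, adjusted p = 0.734 and 0.982), Nos1 at 2.95 to 20.7 normalized counts. Of 14 Rac exchange factors and Rac genes, Kalrn fell and the rest did not pass; Trio, the paralogue of Kalrn, changed by -0.04 ± 0.11 (SE).

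Beyond the calls, the rule of effect size named the genes with the largest changes, a mean of at least 100 normalized counts and no overlap between the groups. No overlap was thus required of these genes and is no separate result for them, Plau, Hlx, Igkc, Ighm and Ccl6 included. In all, 928 genes (5.97%) lay wholly higher in the MI hearts and 792 (5.1%) wholly lower. The largest decrease was in Kdm5d, a Y-linked gene at 362 to 433 in the sham hearts and at 341, 0 and 0 in the MI hearts. Then came Plau, Nckap5 (-0.87), Nav3 (-0.82), Tmem100 (-0.78), Hlx (-0.75), Pcdh17 (-0.73) and Rsad2 (-0.73), the last an interferon-induced antiviral gene. Hlx, a homeobox gene, was at 235, 242, 263 and 209 in the sham hearts and at 147, 136 and 137 in the MI hearts (limma, adjusted p = 0.170), and it passed under DESeq2 and in the 7-library fit. The MI hearts were below the sham hearts and close to each other, and the change in OE minus that in WT was -1.0 ± 0.25 (SE; limma, adjusted p = 0.0216).

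The largest increases were in immunoglobulin and adipose genes. Igkc, the kappa light-chain constant region, stood at 49.1, 131, 42.4 and 102 in the sham hearts and at 476, 852 and 1095 in the MI hearts. Ighm, the IgM heavy chain, was at 165, 182, 121.4 and 167 in the sham hearts and at 614, 1231 and 1311 in the MI hearts. Their log2 changes were 3.37 ± 1.07 and 2.66 ± 1.03 (SE; limma, adjusted p = 0.412 and 0.567). In both, every MI heart lay above every sham heart, as the rule required, and MI replicate 1 was the lowest of the MI hearts.

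Cfd, the adipocyte protease adipsin, was at 107, 32.7, 44.4 and 35.9 in the sham hearts and at 273, 196 and 607 in the MI hearts (log2 change 2.69 ± 1.09 SE). Car3 and Cyp2e1, a carbonic anhydrase and a cytochrome P450 found in fat and liver, had log2 changes of 2.16 and 1.63. Ccl6, a chemokine of myeloid cells, was at 202, 197, 186 and 232 in the sham hearts and at 434, 420 and 505 in the MI hearts. The groups did not overlap, and the change of 1.14 ± 0.28 (SE) passed under DESeq2 and in the 7-library fit but not in the fit over all groups (limma, adjusted p = 0.224). Pttg1 and Rps18 also met the rule, with sham replicate 4 far below the other shams (52.1 against 599 to 617, and 33.3 against 117 to 181). Rps18, a ribosomal protein gene, has near-identical copies and overlaps Vps52 on the other strand, so its count is uncertain.

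Scar genes differed between the genotypes in their response to MI. Of 24 fibroblast and matrix genes, 0 passed in OE hearts at T2 (limma; 7 were higher and 0 lower at an unadjusted p below 0.05, 0 passed under edgeR or DESeq2, and 3 in the 7-library fit) with a median log2 change of 0.25. Over all genes, 3.89% were higher and 3.17% lower at that unadjusted p. In OE hearts 9 of the 24 lay wholly higher and 2 wholly lower, where 5.97% and 5.1% of all genes did. In WT hearts at T2, where 11.4% of all genes rose and 10.4% fell, 23 of the 24 rose, with a median of 1.51. In OE sham hearts the list stood 0.72 log2 above WT sham hearts, as the median over its genes. This comparison of shams was not tested.

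Col1a1, a chain of the main scar collagen, was at 2249, 2374, 2359 and 2244 in the OE sham hearts and at 4387, 2935 and 2762 in the OE MI hearts. The MI hearts lay above the shams, and MI replicate 1 was the highest. In WT hearts it was at 1116 to 1418 in the shams and at 4269 to 8526 after MI. The log2 change was 0.51 ± 0.25 (SE; limma, adjusted p = 0.706) in OE hearts and 2.29 (limma, adjusted p = 5.47e-06) in WT hearts, and the difference was -1.77 ± 0.35 (SE; limma, adjusted p = 0.0111). Col3a1, its partner in the scar, behaved alike in values: 3391, 3543, 3584 and 3105 in the shams and 7746, 4663 and 4592 after MI, a change of 0.69 ± 0.29 (SE) against 2.41 in WT hearts.

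Timp1, an inhibitor of matrix metalloproteinases, was at 55.8, 37.2, 55.3 and 52.1 in the sham hearts and at 170, 120 and 98.2 after MI. Its change of 1.33 ± 0.35 (SE) was the largest of the list. It passed in the 7-library fit and not in the fit over all groups (limma, adjusted p = 0.241). Postn, the matricellular protein periostin, was at 2442, 2362, 2004 and 2152 in the sham hearts and at 3951, 1827 and 2925 after MI, so the groups overlapped (0.31 ± 0.29 SE). In WT hearts it rose by 2.05 (limma, adjusted p = 5.71e-05). Tnc, tenascin C, was at 58.7, 53.6, 67.1 and 49.6 in the shams and at 116, 84.5 and 83.1 after MI (0.71 ± 0.40 SE), against 3.16 in WT hearts.

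**Figure D2:**
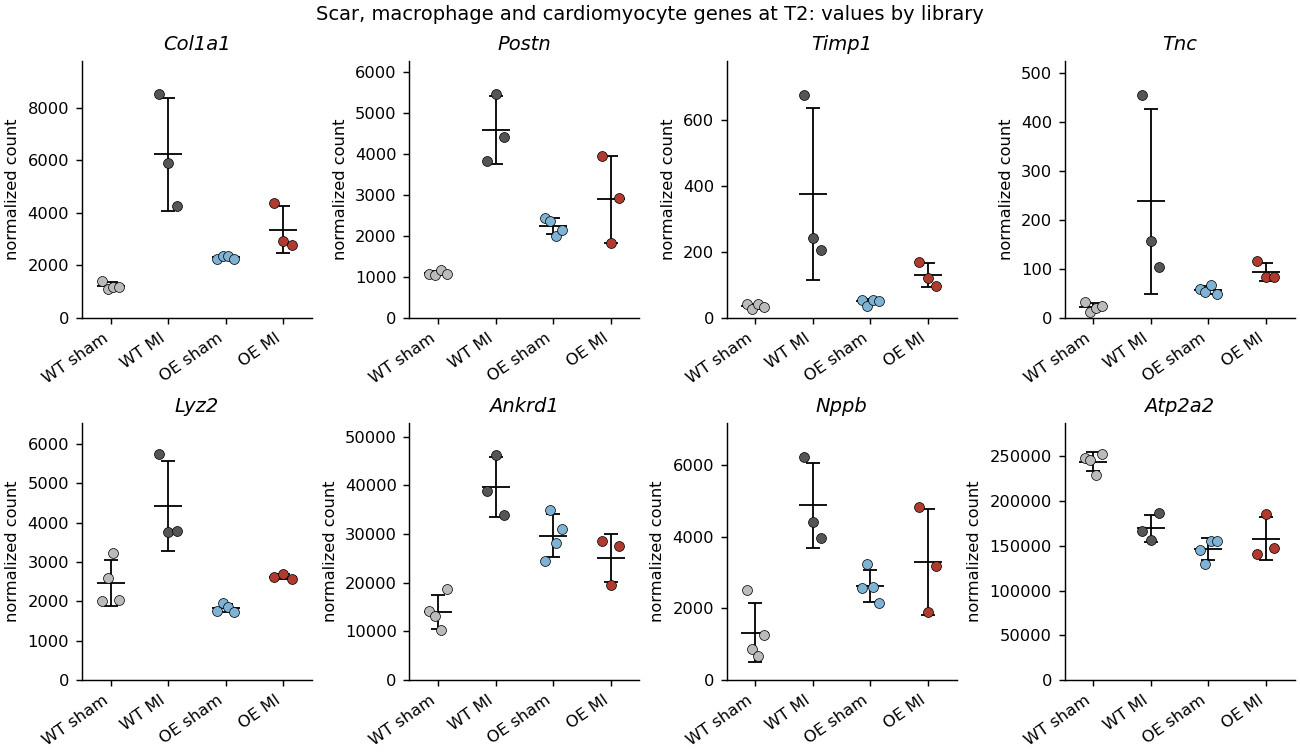
Normalized counts (y axis, linear from 0) of 8 scar, macrophage and cardiomyocyte genes in each T2 library of both genotypes, with the mean and SD of each group. The OE MI hearts spread from the OE sham range (Postn 1827) up to MI replicate 1 (Postn 3951, Col1a1 4387), and for Col1a1, Timp1 and Tnc the WT MI hearts reach 8526, 674 and 455.

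The 3 MI hearts differed among themselves. The fibroblast and matrix list stood 0.62, 0.09 and 0.15 log2 above the mean of the OE shams in MI replicates 1, 3 and 4, and the matricellular list 1.05, 0.11 and 0.33. The WT MI hearts stood at 1.28 to 1.75 and at 2.06 to 2.60 above their own shams. The list medians in OE hearts were 0.05 and 0.11 without MI replicate 1, and 0.35 and 0.64 without MI replicate 3. With only the male MI heart, which is replicate 1, the medians were 0.64 and 0.93, and Col1a1 stood at 0.93 and Postn at 0.82. With sex or Gm15487 class as a covariate the matrix median was 0.25 and 0.18.

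In OE minus WT at T2, 372 genes were higher (2.39%) and 395 lower (2.54%). The fibroblast and matrix list had 20 of its 24 members lower and 0 higher (median -1.25), and the matricellular list 14 of 22 lower (median -1.86). The OE sham hearts already stood above the WT sham hearts in both lists, by a median of 0.72 and 1.01 log2, which was not tested. With sex as a covariate 21 and 13 were lower, and with Gm15487 class as a covariate 20 and 13. Class enters this difference with little weight, so its counts are a weak check. Every MI heart of both genotypes at T2 was low, and of the T2 shams only OE sham replicate 3 was. Without OE MI replicate 3, the heart with the smallest rise, the 767 calls fell to 82, of which 10 and 1 were in these lists, and without WT MI replicate 3 to 192, with 15 and 5. Fewer were also called without OE sham replicate 2 (424), WT MI replicate 2 (456) or OE MI replicate 4 (463). With only the male MI heart 0 were called in all, while the medians of both lists were -1.02 and -1.13. Scaling to library totals moved the split to 71 higher and 629 lower and the median of all genes to -0.14, with 21 and 15 of the lists lower.

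**Figure D3:**
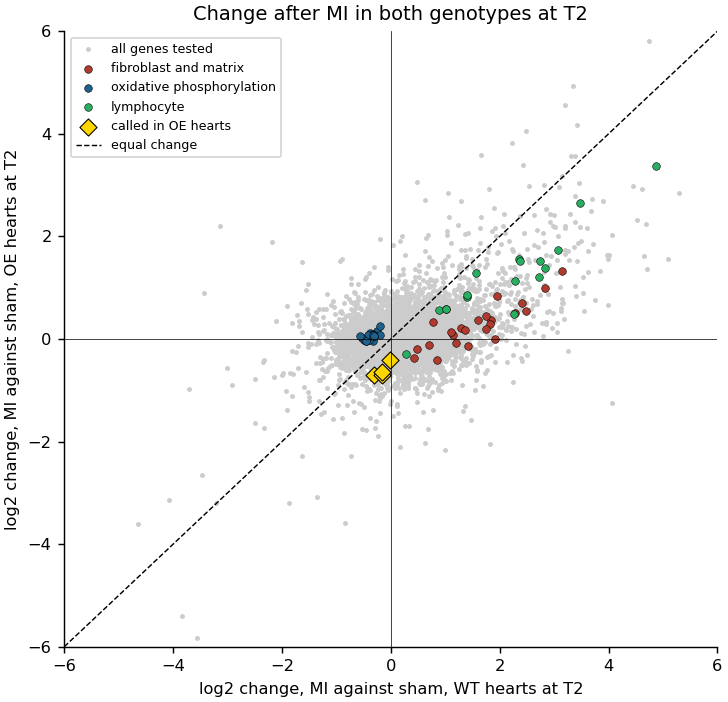
Log2 change after MI in WT hearts (x axis) against that in OE hearts (y axis) at T2, each point a gene, 4 genes lying beyond the axes; coloured points are members of 3 lists, diamonds the 4 called genes, and the dashed line marks equal change. Fibroblast and matrix genes spread along the x axis (median 1.51) with little change on the y axis (median 0.25), while oxidative phosphorylation genes lie left of 0 in WT hearts (median -0.38) and near 0 in OE hearts (median 0.05).

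Over all 15533 genes the log2 changes had an SD of 0.37 in OE hearts and 0.56 in WT hearts at T2, at the same median SE of 0.13. A 95% interval for a gene of median precision was 0.27 to either side. Across genes the changes in both genotypes, which share no library, had a Pearson r of 0.479; genes are not independent replicates. In both genotypes the female pattern was more common among the MI hearts than among the shams. Its part in this r was not tested. Genes called after MI in WT hearts at T1, from separate libraries, numbered 885 among those tested. Of these 71.6% had the T1 direction in OE hearts at T2, against 96.0% in WT hearts at T2. Signed by the T1 direction, the change was smaller in OE hearts than in WT hearts for 91.1%, changes in the opposite direction included. The 656 that had risen at T1 had a median log2 change of 0.13 in OE hearts and of 0.74 in WT hearts at T2, and the 229 that had fallen -0.02 and -0.21.

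Immune lists went different ways after MI, and among them Nos2 alone passed the test. Of 16 lymphocyte markers 0 passed (limma; 2 were higher and 0 lower at an unadjusted p below 0.05, 0 passed under DESeq2, and 1, Ighm, in the 7-library fit), with a median of 1.24 and 15 of 16 above 0. The 3 MI hearts stood at 0.45, 0.96 and 2.41 above the sham mean, and the list's median was 0.14 without MI replicate 4, 0.21 with only the male MI heart, and 0.62 with sex as a covariate. Of the 16, 5 lay wholly higher, where 5.97% of all genes did, among them the B-cell genes Ighm, Igkc, Cd79a and Cd79b. In WT hearts 5 of the 16 passed (median 2.32).

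Of 20 macrophage markers 0 passed in OE hearts (limma; 2 were higher at an unadjusted p below 0.05), with a median of 0.20, and 10 rose in WT hearts (median 0.69). Lyz2, lysozyme of macrophages and neutrophils, was at 1766, 1953, 1859 and 1719 in the sham hearts and at 2624, 2701 and 2565 after MI. Every MI heart lay above every sham heart, and the change of 0.53 ± 0.17 (SE) passed only in the 7-library fit (limma over all groups, adjusted p = 0.417). Lyve1, a marker of resident macrophages and of lymphatic endothelium, was at 392, 357, 494 and 481 in the shams and at 639, 635 and 709 after MI (0.63 ± 0.16 SE; limma, adjusted p = 0.241). The resident macrophage list had 7 of 7 above 0, with none past the test. Its median was 0.33, against 0.27 in WT hearts. Of 17 monocyte and inflammatory mediators tested, 1, Nos2, fell and 7 lay above 0, with a median of -0.01.

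Neutrophil markers were near 0 in the sham hearts. The 5 tested had a median log2 change of 2.37 in OE hearts and of 1.06 in WT hearts. S100a9, a calcium-binding protein abundant in neutrophils, was at 2.89, 4.54, 4.94 and 5.98 in the shams and at 35.2, 15.7 and 36.3 after MI (2.37 ± 0.95 SE; limma, adjusted p = 0.579). The matrix metalloproteinase Mmp9, named after its values were seen, was at 9.63, 11.8, 9.87 and 8.55 in the shams and at 28.0, 43.2 and 29.2 after MI (1.63 ± 0.37 SE; limma, adjusted p = 0.170). Mmp9 passed under DESeq2 (adjusted p = 0.0353), and Mmp9 and S100a9 both passed in the 7-library limma fit (adjusted p = 0.0334). Of the adipocyte list, 8 of 10 markers were above 0 (median 1.80, with 0.92 to 2.12 in the 3 MI hearts and -0.94 to 1.24 in the 4 shams), though 0 passed. Epicardial markers were above 0 in 12 of 12 members in both genotypes, with a median of 0.58 in OE hearts and 0.62 in WT hearts. In OE hearts 5 did not overlap, where 5.97% of all genes lay wholly higher. No epicardial marker passed the test over all groups in OE hearts. In the 7-library fit 1 passed, Aldh1a2, which encodes a retinoic acid synthesis enzyme. Krt8, an epithelial keratin, was at 7.70, 8.17, 6.91 and 8.55 in the shams and at 20.8, 11.8 and 34.5 after MI.

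Interferon-response genes differed between the stages in OE hearts. In WT hearts, where the stage difference was not tested, the median of the list was 0.19 at T2 and 0.80 at T3. At T2, 0 of 21 passed in OE hearts (limma; 1 was lower at an unadjusted p below 0.05), with a median of -0.12 and 3 of 21 above 0. MI replicates 1, 3 and 4 stood at -0.32, -0.22 and 0.06 from the sham mean, and the median was -0.24 without replicate 4 and -0.08 without replicate 1. In OE hearts at T3, where 11.1% of genes rose and 7.99% fell, 20 of the 21 rose with a median of 1.01. Of the stage difference, in which 273 genes were higher (1.76%) and 131 lower (0.843%), 9 of the 21 were higher at T3. Rsad2, viperin, was at 398, 416, 289 and 375 in the sham hearts at T2 and at 162, 254 and 258 after MI (-0.73 ± 0.27 SE; limma, adjusted p = 0.531), and it rose by 0.86 at T3 (limma, adjusted p = 0.0304). The 404 stage differences numbered 122 without OE MI replicate 3 at T2, 41 with only the male MI heart, 97 with Gm15487 class as a covariate, and 1035 without OE MI replicate 4 at T3.

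No gene of the cardiomyocyte lists passed the test in OE hearts at T2. Of 26 oxidative phosphorylation genes 0 passed in OE hearts (limma; 1 was higher at an unadjusted p below 0.05, and 0 passed under DESeq2), with a median of 0.05, while 24 fell in WT hearts (median -0.38). In OE minus WT, 21 of 26 were higher (median 0.43), with 20 under either covariate, of which class again has little weight in this difference. Without OE MI replicate 3 it was 0, and under library totals 4. The OE sham hearts already stood 0.48 log2 below the WT sham hearts for this list. Fatty acid oxidation and tricarboxylic acid cycle genes gave medians of -0.03 and 0.01 in OE hearts, against -0.47 and -0.42 in WT hearts, where 22 of 26 and 19 of 19 fell. OE shams minus WT shams had medians of -0.57 and -0.44 log2 in these lists, which was not tested.

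Atp2a2, the calcium pump of the sarcoplasmic reticulum, was at 144948, 129299, 155062 and 155378 in the OE sham hearts and at 140675, 185811 and 148127 after MI, with overlapping groups (0.11 ± 0.10 SE). In WT hearts it fell by 0.53 on the log2 scale (limma, adjusted p = 0.000619), and the genotypes differed (0.63 ± 0.14 SE; limma, adjusted p = 0.0139). Among stretch and fetal genes, Ankrd1, a stress-responsive ankyrin repeat protein, was at 24539, 34908, 28199 and 30969 in the shams and at 28533, 19490 and 27469 after MI (-0.25 ± 0.26 SE). It rose by 1.52 in WT hearts (limma, adjusted p = 0.00029), and the difference was -1.76 ± 0.37 (SE; limma, adjusted p = 0.0117). Nppb, the B-type natriuretic peptide, was at 2559, 3229, 2606 and 2151 in the shams and at 4839, 1894 and 3173 after MI, so the groups overlapped (0.24 ± 0.49 SE). Nppa changed by 0.09 ± 0.44 (SE) at T2 and rose by 2.97 at T3 (limma, adjusted p = 0.00026). The atrial marker list, 7 of 7 above 0, ranged with the hearts from -0.46 in MI replicate 3 to 1.05 in MI replicate 1. The sham hearts spread as widely, at 0.74, -0.16, 0.37 and -0.95 in replicates 1 to 4, and the part of this spread in the other results was not tested. At T3 the list's median was 1.29, and Nppa was its 1 member past the test.

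**Figure D4:**
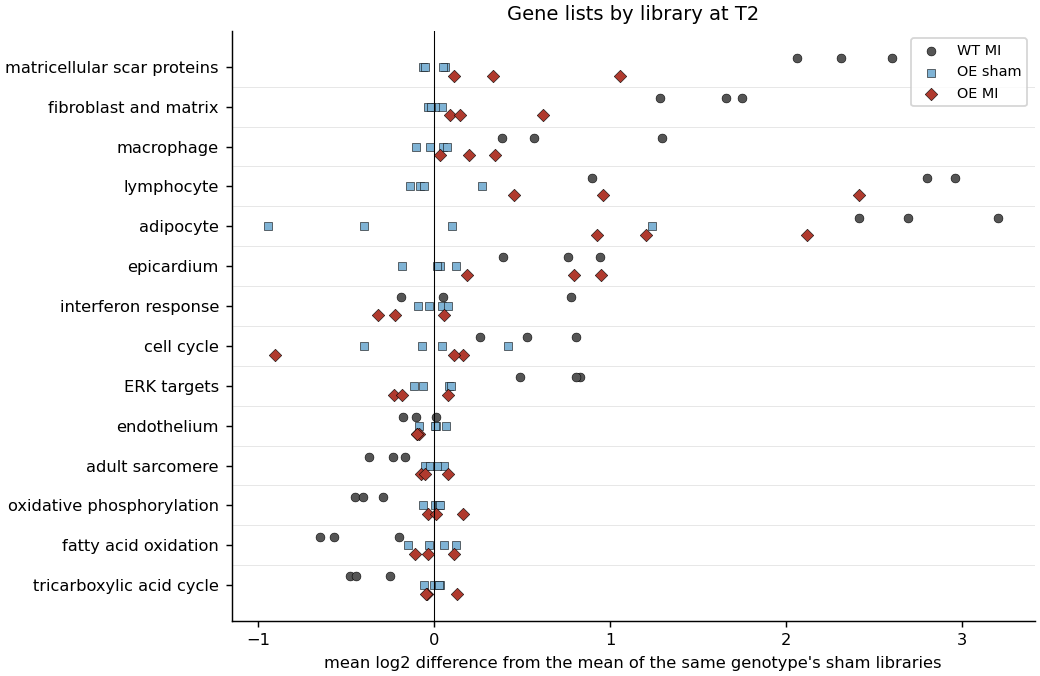
Mean log2 difference of the members of 14 gene lists from the mean of the same genotype's sham libraries at T2 (x axis), each point a library of the WT MI, OE sham or OE MI hearts. In the matricellular and matrix lists OE MI replicate 1 lies at 1.05 and 0.62, the other OE MI hearts at 0.33 or below, and the WT MI hearts at 1.28 or above.

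The remaining lists gave the following. Of 21 genes of the ATF4 and unfolded protein response list, 0 passed (limma; 6 were higher and 1 lower at an unadjusted p below 0.05), 16 lay above 0 and 7 did not overlap, all of them higher. Over all genes 5.97% lay wholly higher, and 3.89% were higher at an unadjusted p below 0.05. The list's median was 0.25 in OE hearts and 0.12 in WT hearts. Hspa5, the main chaperone of the endoplasmic reticulum, was at 5638, 5315, 5870 and 5402 in the shams and at 6909, 6930 and 6169 after MI. All MI hearts lay above the shams, the change of 0.26 ± 0.08 (SE) missed the threshold (limma, adjusted p = 0.368), and in OE minus WT it was higher (0.52 ± 0.11 SE; limma, adjusted p = 0.0124). ERK targets had 8 of 22 above 0 (median -0.06), against 21 of 22 in WT hearts (median 0.55). For this list the OE shams stood a median of 0.41 log2 above the WT shams, which was not tested. Egr1, an early-response transcription factor, was at 555, 468, 481 and 419 in the shams and at 367, 276 and 256 after MI (-0.69 ± 0.27 SE; limma, adjusted p = 0.576), whereas it rose by 1.01 in WT hearts (limma, adjusted p = 0.0108). The genotypes differed by -1.70 ± 0.39 (SE; limma, adjusted p = 0.0155). Cell-cycle genes had a median of -0.21 in OE hearts, with -0.90 in MI replicate 3 and 0.16 and 0.11 in replicates 1 and 4, and the median was 0.11 without replicate 3. Endothelial genes had a median of -0.10, with Tie1 and Cdh5, an endothelial receptor and cadherin, lower in each MI heart (-0.24 and -0.22; limma, adjusted p = 0.269 and 0.536). Antigen presentation genes had a median of -0.05 with 4 of 12 above 0, and the MI hearts went opposite ways, at -0.34, -0.25 and 0.49 from the sham mean in replicates 1, 3 and 4. Their median was -0.33 without MI replicate 4 and 0.12 without MI replicate 1, and 0 passed. Adult sarcomere (-0.01), circadian clock (-0.05), ERBB receptors and ligands (0.07) and YAP and TEAD targets (-0.02) had medians near 0 and no member past the test.

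For the same comparison, the authors' deposited table lists 8 genes as higher and 14 as lower, at its own limits of an adjusted p of 0.05, a fold of 1.5 and a largest count of 30. It lists 986 and 172 for WT hearts at T2 and 1087 and 132 for OE hearts at T3. In the authors' deposited table Vtn has a log2 change of -0.718, Nos2 of -0.719, Etl4 of -0.647, Plau of -0.968 and Hlx of -0.760. The increases in the authors' deposited table include Mmp12 (2.42), Mmp9 (1.74), Ccl6 (1.15), Ccl9 (1.15) and Fndc1 (0.960). Its 22 entries also include Xist and, of the pseudogenes that separate the libraries, Gm15487, Gm9825, Gm6969 and Gm13443.

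Genes with no overlap between the groups were also counted in the other comparisons: 2174 higher (14%) and 1946 lower (12.5%) in WT hearts at T2, and 2103 higher (13.5%) and 2076 lower (13.4%) in OE hearts at T3, against the 5.97% and 5.1% above.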

How the data were processed

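RNA was extracted from perfused, powdered whole hearts and sequenced as poly A libraries, per the labels' protocols. Reads were handled with cutadapt, STAR, HTSeq and DESeq2 on GRCm38, per the submitters' processing notes, whose versions those notes leave out. As deposited, the tables hold a signal per gene and library, the authors' normalized counts, that is counts divided by a size factor. Dividing each column by its smallest step gave whole reads for all values (100% within 0.1 reads) in the second experiment. The authors' deposited comparison table gives log2 fold changes and adjusted p-values.

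The main test was limma 3.58.1 (trend, robust) on log2(normalized count + 1), a mean per group over the 29 libraries of the 8 groups of the second experiment, for genes with at least 10 in 3 or more libraries, with Benjamini-Hochberg adjustment and a threshold of 0.05. edgeR 4.0.16 and DESeq2 1.42.0 ran on the recovered reads as alternatives. The limma test was checked on simulated data. Replicates differed by more than sampling noise. No label calls them separate litters, so a p-value covers only how far these libraries spread, which may be technical. Members and lists were chosen with earlier results of these data known. Named were Vtn, Nos2, Kalrn, every called gene, the 8 largest changes each way without overlap and with a mean of at least 100, 15 injury genes, up to 5 each way of the genotype difference, and up to 2 per list. Of 632 list entries 1 was not found. Sequences are RefSeq's. Fits with sex, Gm15487 class or only the male MI heart were chosen after seeing the data.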

Additional observations from a re-analysis of the deposited data

Results flagged for a closer look

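Among 45 named genes examined, a single OE sham library at T2 lay far from the other 3 in 2 genes, where chance marks about 1 in 20 groups: Cfd at 106.88 normalized counts in replicate 1, and Pttg1 at 52.13 in replicate 4.

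The response to MI differed between OE and WT hearts at T2 (limma, adjusted p below 0.05) for the following named genes, given as the log2 difference: Kalrn -0.3961, Plau -1.228, Hlx -1, Ankrd1 -1.762, Col1a1 -1.775, Col3a1 -1.722, Postn -1.739, Tnc -2.458, Atp2a2 0.6341, Yipf7 0.7169, Mgme1 0.7303, Mtfp1 0.5902, Asb11 0.657, Mmaa 0.5858, Timp2 -1.062, Bicc1 -1.195, Igsf10 -1.647, Mxra8 -1.106 and Marcks -0.8075. The response of OE hearts differed between the stages, T3 minus T2, for Vtn 1.111, Nos2 0.6638, Kalrn 0.4136, Etl4 1.079, Plau 1.93, Nav3 1.561, Rsad2 1.591, Nppa 2.881, Yipf7 -0.6202, Timp2 0.582, Bicc1 0.8776, Mxra8 0.7897 and Marcks 0.6608. Both differences share the OE libraries at T2, and their dependence on single libraries is given with the processing. The lists do not hold every named gene that differed: Egr1 and Hspa5, given above, also differed between the genotypes.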

How the results depend on the processing

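Of 1962 recomputed values of named genes, 1920 stayed on the same side of the threshold, 31 lost their call and 11 gained one. Only 4 of the 109 named genes were called in the main fit, so most of the 1920 were uncalled genes that stayed uncalled. Vtn, Kalrn, Nos2 and Etl4 kept their call in 15, 10, 7 and 9 of 18 alternatives. A reversal was counted only where a call was involved, and 0 were found. Of 592 list medians 79 moved by more than the spread. For MI against sham in OE hearts at T2, 40 genes were called with only the groups compared, 2 under library totals, 37 under DESeq2, 1 with sex and 0 with Gm15487 class as a covariate, and 0 with only the male MI heart. Leaving out 1 library gave 1 to 10 calls: 2 without sham replicate 1, 1 without sham replicate 2, 10 without sham replicate 3, 1 without sham replicate 4, and 2, 3 and 1 without MI replicates 1, 3 and 4. In WT hearts at T2 the 3379 calls became 1616 with only the groups compared and 1023 with Gm15487 class as a covariate, and 2106 to 3340 with a library left out, the lowest without MI replicate 2, with 2124 without MI replicate 3. The 767 calls of OE minus WT became 1230 under DESeq2, 0 with only the male MI heart, and 82 to 1045 with a library left out. In OE hearts at T3 the 2963 calls became 1839 with only the groups compared and 1538 to 3596 with a library left out; sham replicates 1 and 3 and MI replicates 1 and 2 gave 1680, 1566, 1538 and 1681. The 404 calls of T3 minus T2 became 615 with only the groups compared, 802 under library totals, 840 under DESeq2, 97 with Gm15487 class as a covariate, 41 with only the male MI heart, and 122 to 1035 with a library left out. Below 270 were those without T2 sham replicates 1, 2 or 4 (214, 169 and 259), T2 MI replicates 3 or 4 (122 and 252), T3 sham replicates 1 or 3 (164 and 191) and T3 MI replicates 1 or 2 (149 and 160). Beyond the construction of each alternative, the cause was not tested.

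Scaling to library totals moved the median of all genes to 0.13 in WT hearts at T2, 0.15 in OE hearts at T3 and 0.17 in T3 minus T2, and the splits to 2692 higher and 553 lower, 3056 and 167, and 775 and 27. In WT hearts the fit on the compared groups alone gave 1022 higher and 594 lower, and in OE minus WT 198 and 339. Under library totals the oxidative phosphorylation median in OE hearts at T3 was 0.03 in place of -0.13. Replicate numbers did not pair the samples: the correlations of same-numbered deviations were 0.03, 0.05 and -0.01 in OE hearts and -0.11, -0.04 and 0.04 in WT hearts at T2, and the replicate block gave 5 calls in OE hearts at T2 (4 of them the same genes), 3614 in WT hearts, 938 in OE minus WT, 3272 in OE hearts at T3 and 409 in T3 minus T2. With 3 MI hearts and a median SE of 0.13, small changes are not detectable here.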

Other observations

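Among the genes named for the difference between genotypes, the cardiomyocyte-enriched Yipf7 stood at 1009, 861, 1133 and 1012 normalized counts in the OE sham hearts and at 1171, 1155 and 1147 after MI. The groups did not overlap. Asb11 was at 1539, 1379, 1459 and 1499 in the shams and at 1582, 1882 and 1771 after MI, likewise without overlap. Mgme1, a mitochondrial exonuclease, was at 272, 239, 269 and 260 in the shams and at 281, 308 and 299 after MI. In WT hearts these fell by 0.50, 0.41 and 0.55 on the log2 scale (limma, adjusted p = 0.000201, 0.000832 and 0.000138), while in OE hearts the changes of 0.21, 0.25 and 0.19 did not pass (limma, adjusted p = 0.584, 0.417 and 0.706).

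Timp2, a metalloproteinase inhibitor, and Bicc1, an RNA-binding protein, were the lower genes with the smallest p. Timp2 was at 5649 to 5742 in the OE shams and at 6494, 4889 and 5605 after MI, so the MI hearts lay on either side of the shams. Bicc1 was at 928 to 1123 in the shams and at 950, 824 and 829.5 after MI. In WT hearts they rose by 1.05 and 0.96 (limma, adjusted p = 1.44e-06 and 7.13e-06).

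Slc7a11, the cystine transporter, was at 0.96, 1.82, 5.92 and 1.71 in the OE shams and at 7.20, 10.8 and 25.7 after MI, with no overlap (log2 change 2.10 ± 0.67 SE; limma, adjusted p = 0.403). Bmp10, an atrial growth factor, was at 1369, 1106, 735 and 6.84 in the shams, sham replicate 4 standing far below the others, as it did for Pttg1.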
